A study of Mus musculus with 6 samples.

Results

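The metalloproteinases that cut matrix and cell-surface proteins, together with their tissue inhibitors, were followed in mouse epididymal white fat after acute beta-3 adrenergic stimulation. Members were all array probes whose platform gene symbol begins with Adam and a digit, Adamts (Adamts-like genes included), Mmp and a digit, or Timp and a digit. This rule, which uses names only, found 59 of 19200 probes, for 57 genes; Adam10 and Adamts9 have 2 probes each.

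The tissue came from 12-week-old male C57BL/6J mice. One group received CL-316,243, an agonist of the beta-3 adrenergic receptor, at 1 mg/kg and the other received saline, and both were killed 3 hr later. RNA of 6 mice was pooled in each group. The same 2 pools were hybridised together on 6 two-colour arrays: CL-316,243 RNA was in channel 1 on arrays 1 to 3 and in channel 2 on arrays 4 to 6. There is therefore 1 biological replicate of each treatment, and the p-values below measure only the spread between arrays and compare 2 pools.

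Each value is a log ratio of one pool to the other, deposited by the authors after scaling and LOWESS, and is read here as log2; with natural logs every value would be 1.44 times as large on the log2 scale. The sources used here do not name the numerator pool. A positive ratio therefore means more RNA in the numerator pool, and every direction below turns if that pool is the saline one. Values were used with their deposited signs, which takes the signs to run the same way in both orientations. The sources used here do not state this, and the placement described next assumes it, so a shared sign in both orientations is partly built in. Il6, a cytokine that beta-3 agonists are known to induce in fat, was positive on all 6 arrays (1.77 ± 0.19, standard error), and so was the lipid droplet gene Hilpda (3.60 ± 0.17). A ratio holds no level, so neither the abundance of a gene nor the presence of a cell type could be checked, and in a pool of whole fat fewer cells of a type and less RNA per cell cannot be told apart.

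Rows of the deposited columns did not correspond between arrays, because dropped spots had been closed up; rank correlations between arrays lay between -0.031 and 0.034. Each column was therefore placed on probe numbers, after which arrays of the same orientation correlated at 0.283 on average (0.088 to 0.421) and arrays of opposite orientation at 0.108 (-0.023 to 0.175). The placement kept between 91.8% and 99.8% of probes on 5 arrays and 61.9% on array 2, which had lost 724 spots. Because it uses agreement between arrays it raises that agreement, and with the sign of arrays 1 to 3 turned it kept 77.1%, 6.54% and 75.4% of probes on them, at almost wholly different positions, against 97.0%, 61.9% and 96.5%. Masking all member probes during placement moved none of the 320 member values kept both ways. The mean of each probe was tested against 0 with limma, with dye orientation as a covariate, over the 18301 probes with at least 4 arrays and at least 2 in each orientation; adjusted p-values are Benjamini-Hochberg over all of them, with a threshold of 0.05. Probes of 1 gene correlated weakly over the array (Spearman 0.06 over 1157 pairs of 976 genes, a description), so a gene read from 1 probe carries that uncertainty. Where a probe of such a pair passed, its partner had the same sign in 46 of 77 cases.

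ADAM proteins are membrane-anchored proteases that release growth factors, cytokines and receptors from the cell surface, and several are sperm proteins that act in fertilisation. ADAMTS proteases are secreted, bind matrix through thrombospondin repeats and cleave large proteoglycans such as versican and aggrecan or process procollagen. MMPs cut collagens, gelatin, elastin and many other extracellular proteins, TIMPs block their active sites, and the balance between them shapes matrix and vessels as a fat depot expands or shrinks.

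The start-site regions of both genes that passed the threshold are shown. They come from RefSeq on build GRCm38.p6 and run from 250 bases before to 50 bases after the gene start, 5′ to 3′ on the gene's strand, with motif matches in capitals. The Adamts9 window lies at chr6:92943485-92943784 (minus strand) and the Adam8 window at chr7:139992513-139992812 (minus strand).
Adamts9: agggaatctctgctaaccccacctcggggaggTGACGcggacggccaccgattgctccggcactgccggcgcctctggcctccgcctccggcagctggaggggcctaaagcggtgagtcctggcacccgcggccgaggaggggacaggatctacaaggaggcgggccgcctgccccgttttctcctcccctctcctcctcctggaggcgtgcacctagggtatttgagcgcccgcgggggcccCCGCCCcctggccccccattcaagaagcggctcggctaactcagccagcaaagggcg
Adam8: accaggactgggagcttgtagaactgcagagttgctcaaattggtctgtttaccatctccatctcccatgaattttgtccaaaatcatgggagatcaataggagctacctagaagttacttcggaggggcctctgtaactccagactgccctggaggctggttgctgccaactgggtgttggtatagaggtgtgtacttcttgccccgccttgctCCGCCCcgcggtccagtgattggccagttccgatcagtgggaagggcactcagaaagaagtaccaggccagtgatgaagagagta
The capitals mark a cyclic AMP response element half-site, TGACG, in Adamts9 that begins at position -218 from the start, and a GC box on the reverse strand in each gene, at position -7 in Adamts9 and -35 in Adam8. Both strands were searched. Of all 32851 windows of this length, 20.8% held the half-site and 35.7% the GC box (GGGCGG). Neither window held the full element TGACGTCA (1.79% of all windows), the AP-1 motif TGANTCA (7.81%), the NF-kappaB motif (4.51%) or TATAAA (13.6%). The full element contains the half-site, so those 2 shares overlap. The Adamts9 window was 70% G or C and the Adam8 window 52.3%, against a median of 52.7% over all windows.

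The AP-1 motif did occur in other members. It was found in 11 of the 38 windows available for 33 of the 57 genes (28.9%), and 8 of these 11 genes were among the 9 matched Mmp genes of the cluster at chr9:7272264-7692390; Mmp8 was the exception. In those 8 windows the motif began between positions -95 and -35. Examples follow from the main protease classes, with the motif in capitals, on the gene's strand. Mmp13 (chr9:7272469-7272495) is a collagenase, Mmp3 (chr9:7445766-7445792) a stromelysin, Mmp12 (chr9:7347320-7347346) the macrophage elastase and Mmp20 (chr9:7628126-7628152) the enamel protease.
Mmp13: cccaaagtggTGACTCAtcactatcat
Mmp3: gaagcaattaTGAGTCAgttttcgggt
Mmp12: acatcaacagTGAGTCAgatagaggat
Mmp20: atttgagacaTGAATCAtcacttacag
Of the 11 genes, 10 were tested, 0 passed the limma threshold and 0 had an unadjusted p under 0.05; 9 had a mean ratio below 0 and 1, the sperm gene Adam1b, above 0, with a range of -0.30 to 0.26. Over all probes 3.93% passed, 17.2% had such an unadjusted p and 50.6% had a mean below 0. The count of 9 of 10 below 0 changed with the processing, to 7 of 10 without array 2 and to 4 of 11 with rows read as deposited, where the median turned to 0.10. A match of letters is a description of the window and not evidence of a bound site. Neighbouring genes of a cluster share their place in the genome and are not independent points.

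Of the 57 member probes tested, 3 passed the threshold (5.26%), beside 3.93% of all probes; all 3 were positive, beside 2.66% of all probes that passed with a positive ratio. The 3 were both probes of Adamts9 and the probe of Adam8. At an unadjusted p under 0.05 there were 9 members (15.8%), beside 17.2% of all probes. A mean of at least 1 in size was reached by 1 member (1.75%), beside 0.940% of all probes. The same sign on every array with a placed value was seen in 12 member probes (21.1%), beside 13.3% of all probes. A shared sign is easier to reach on fewer arrays. Values on all 6 arrays were held by 31 of the 57 member probes and by 11556 of all 18301 probes. Among the 12, only Adam8, Adamts9 probe 14006, Adam18 and Adam26a had all 6 values. Of these 12, 10 were positive (both Adamts9 probes, Adam8, Mmp9, Adamtsl2, Timp1, Adam21, Mmp14, Adam26a and Adam3) and 2 negative (Adam23 and Adam18). No member passed the adjusted threshold in limma's dye term (0 of 57), beside 0.00546% of all probes. The median ratio of members was 0.0011 and their median size 0.15, against -0.0029 and 0.13 over all probes.

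**Figure D1:**
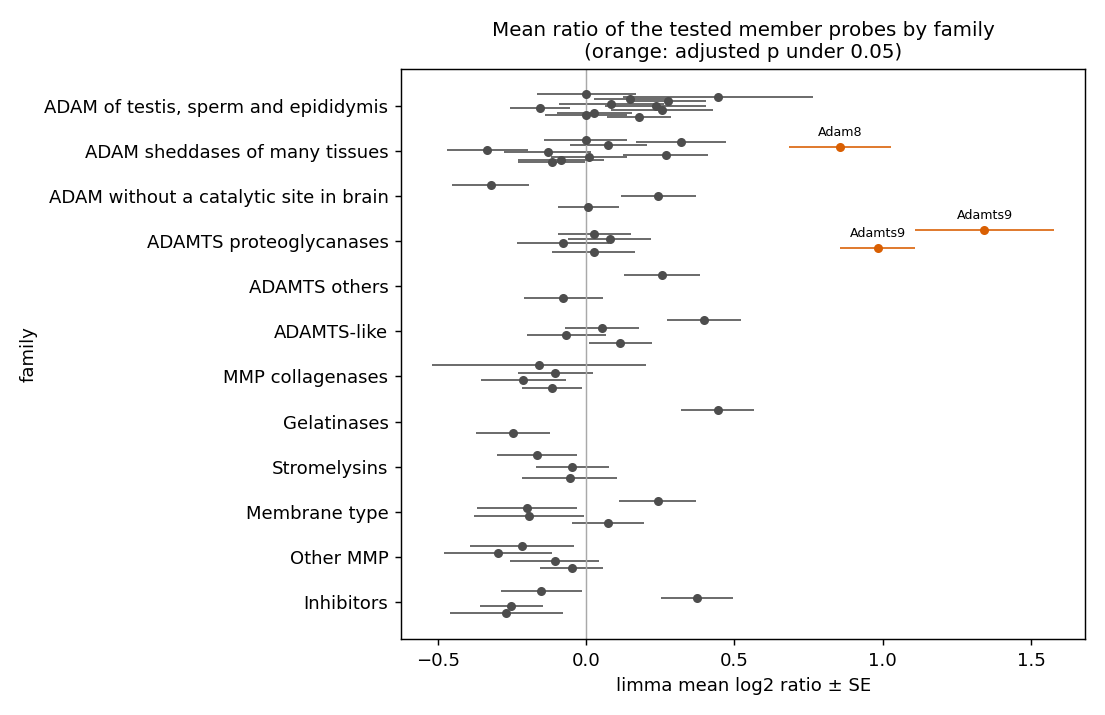
Mean log2 ratio with its limma standard error (x axis) for each tested member probe, grouped by family (y axis); orange points passed an adjusted p of 0.05. Both Adamts9 probes and Adam8 lie apart from the others, whose means range from -0.33 to 0.45.

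ADAMTS9, a secreted protease that cleaves versican and aggrecan, gave the largest ratios of the group on both of its probes. Probe 453 read 1.86, 0.63, 2.04, 1.67 and 0.61 on arrays 1, 3, 4, 5 and 6; on array 2 its place was uncertain and no value was used. All 5 arrays lay above 0, with arrays 3 and 6 the low ones, and the mean was 1.34 ± 0.24 (2.54-fold; limma adjusted p = 0.0162). Probe 14006 read 0.58, 0.93, 1.18, 1.31, 1.21 and 0.70 on arrays 1 to 6. All 6 lay above 0, with arrays 1 and 6 the low ones, and the mean was 0.98 ± 0.13 (1.98-fold; limma adjusted p = 0.00377). With both probes averaged and the fit run over genes, Adamts9 stood at 1.14 ± 0.14 (2.20-fold; limma adjusted p = 0.00273). The 95% interval was 0.81 to 1.87 for probe 453 and 0.70 to 1.27 for probe 14006, so the intervals overlap.

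Neighbouring probe numbers did not share these values. The 4 nearest probe numbers of each of the 3 passing probes had mean ratios between -0.18 and 0.44. Of these 12, 0 passed, beside 3.93% of all probes. At that share a count of 0 is likely for any 12 probes, so it cannot check the positions of the 3. Both orientations gave positive means: 1.25 and 1.44 for probe 453 and 0.89 and 1.07 for probe 14006, with CL-316,243 RNA in channel 1 and channel 2. The placement assumes a common sign, so this agreement between orientations is partly built in. Without array 5, probe 453 no longer passed (1.28, limma adjusted p = 0.0834), and without array 1 or 3 it had too few values to be tested. Probe 14006 passed without any single array, with means between 0.91 and 1.08. With rows read as deposited neither probe passed (0.58 and 0.26, both limma adjusted p = 0.947), and over the remaining alternatives the limma adjusted p ran from 0.00479 to 0.220 for probe 453 and from 0.00205 to 0.184 for probe 14006.

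ADAM8, a sheddase known mainly from neutrophils, macrophages and other myeloid cells, was the other member to pass. Its probe read 1.20, 1.47, 0.25, 1.13, 0.82 and 0.26 on arrays 1 to 6. All 6 lay above 0, but arrays 3 and 6 were well under the rest; the mean was 0.86 ± 0.17 (1.81-fold; limma adjusted p = 0.0230). This call was less firm than that of Adamts9. The value of array 2 was placed with a posterior of 0.977, and where masking the members or a stricter posterior removed it the mean was 0.73 and the probe did not pass (limma adjusted p = 0.0596 and 0.0556). With array 2 left out altogether the mean was the same and the probe passed narrowly (limma adjusted p = 0.0485). It also missed the threshold without array 1 (0.80, 0.104), array 4 (0.76, 0.0801) or array 5 (0.83, 0.108), in the limma adjusted p. Beside it, the 6 tested neutrophil markers all had means above 0, with a median of 0.15 and a range of 0.02 to 0.46, and 0 passed. Of 5 macrophage markers 3 lay above 0, from -0.48 to 0.56, and 0 passed. At an unadjusted limma p under 0.05 there were 2 of these neutrophil markers and 1 of these macrophage markers, beside 17.2% of all probes. Their part in the ratio of Adam8 was not tested.

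**Figure D2:**
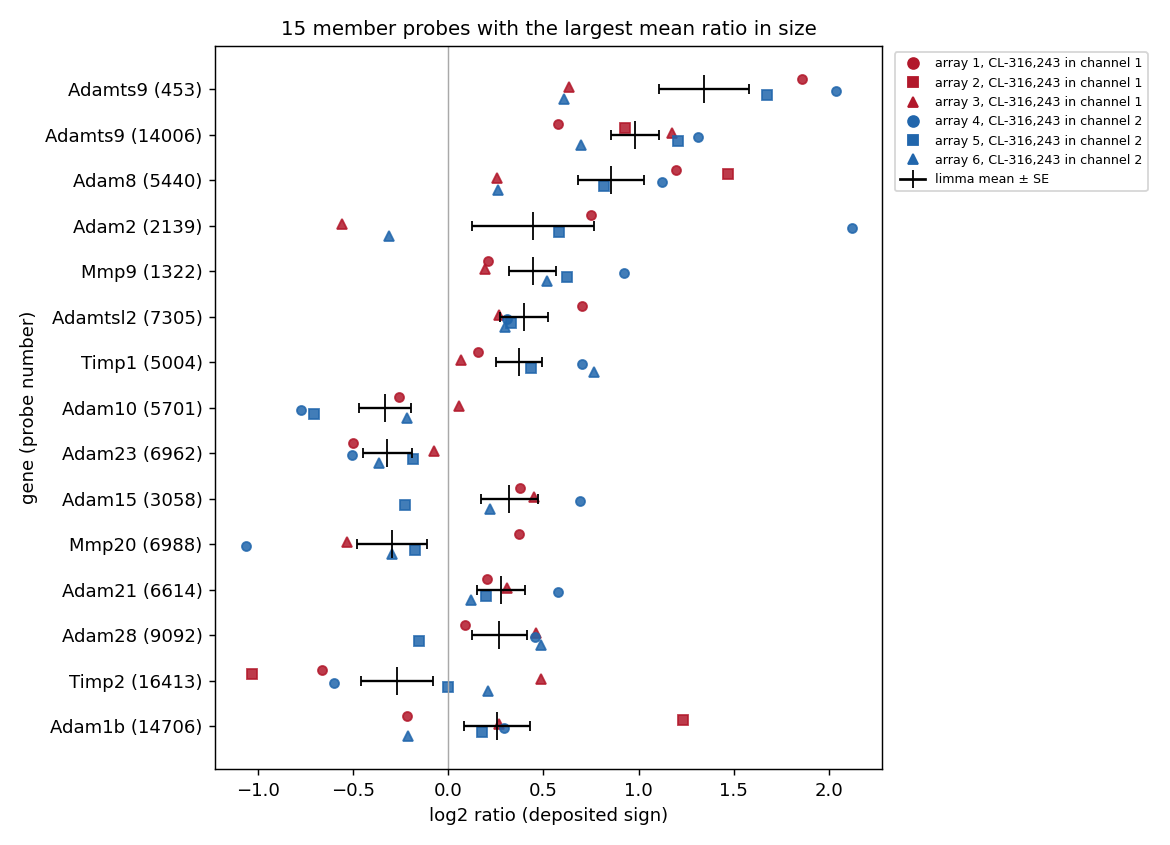
Log2 ratio (x axis) of the 15 tested member probes with the largest mean in size (y axis, probe number in brackets), 1 point per array, coloured by the channel that held CL-316,243 RNA; black crosses are the limma mean ± SE. Adamts9 and Adam8 lie above 0 on every array, and Adam2 spreads from -0.56 to 2.12.

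The other sheddases of many tissues showed no common direction. In this family of 10 tested probes, 5 means were above 0 and 5 below, and Adam8 alone passed. ADAM17, the enzyme that releases TNF and ligands of the EGF receptor, read -0.05, -0.87, 0.14, 0.12, 0.36 and 0.29 on arrays 1 to 6, with array 2 the low one and a mean of -0.00 ± 0.14 (95% interval -0.31 to 0.31). ADAM10, which cuts Notch receptors and E-cadherin, was measured by 2 probes that disagreed. Probe 5701 read -0.26, 0.06, -0.77, -0.71 and -0.22 on arrays 1, 3, 4, 5 and 6 (mean -0.33 ± 0.14, limma adjusted p = 0.251). Probe 5317 read -0.35, 0.05, 0.50, 0.14 and 0.26 on the same arrays (0.08 ± 0.13, limma adjusted p = 0.833). On arrays 4, 5 and 6 these 2 probes had opposite signs, so no single ratio is given for Adam10.

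ADAM15, found in endothelium and smooth muscle, read 0.38, 0.45, 0.69, -0.23 and 0.22 on arrays 1, 3, 4, 5 and 6 (0.32 ± 0.15, limma adjusted p = 0.324). Array 5 alone was negative. ADAM28, a lymphocyte sheddase, read 0.09, 0.46, 0.46, -0.15 and 0.49 on those arrays (0.27 ± 0.14, limma adjusted p = 0.394), again with array 5 below 0. ADAM9 read -0.29, -0.10, 0.35, -0.77, -0.18 and 0.22 on arrays 1 to 6 (-0.13 ± 0.15). ADAM12, known from regenerating muscle and from preadipocytes, read -0.09, 0.42, -0.27, -0.03, 0.28 and -0.25 (0.01 ± 0.13). ADAM19 read -0.49, -0.64, 0.23, -0.12, 0.54 and -0.02 (-0.08 ± 0.14). All 3 had arrays on both sides of 0. Adam33 had a mean of -0.11 ± 0.11.

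ADAM genes of testis, sperm and epididymis had 11 of 12 probes tested. Of their means 9 were above 0 and 2 below, with a median of 0.15. In limma 0 passed the threshold and 0 had an unadjusted p under 0.05. Over all probes 50.6% had a mean below 0, 3.93% passed and 17.2% had such an unadjusted p. Signs changed with the processing. With rows read as deposited, Adam1a, Adam3, Adam7 and Adam26a were the only genes of this family with means above 0. Of all ADAM probes, 16 of 24 means were above 0, but 11 of 25 with rows read as deposited. Adam2, a subunit of the sperm protein fertilin, read 0.75, -0.56, 2.12, 0.58 and -0.31 on arrays 1, 3, 4, 5 and 6 (0.45 ± 0.32, limma adjusted p = 0.541). Its mean rests on array 4, the arrays fell on both sides of 0, and its standard error was well above the members' median of 0.13. Adam21 read 0.21, 0.31, 0.58, 0.20 and 0.12 on those arrays, all above 0 (0.28 ± 0.13, limma adjusted p = 0.310). Adam1b, which pairs with Adam2, read -0.22, 1.23, 0.27, 0.29, 0.18 and -0.21 on arrays 1 to 6 (0.26 ± 0.17, limma adjusted p = 0.508), with array 2 far above the rest. Adam18 was the member of this family with every array below 0 (-0.29 to -0.05, mean -0.15 ± 0.10, limma adjusted p = 0.493). Adam7, an epididymal gene, had 4 placed values (-0.19, 0.41, 0.31 and 0.73 on arrays 1, 4, 5 and 6), which left 1 in the first orientation, and was not tested.

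Fat of this depot lies against the reproductive tract, and markers of neighbouring organs did differ between pools. All 5 tested seminal vesicle markers passed with negative ratios, from Svs4 at -1.16 to Svs5 at -5.47. Of 5 testis markers, with a median of -0.12, 1 passed (Prm2, negative, -0.65), and 2 tested epididymis markers did not (-0.23 and -0.11). The part of such tissue in any member's ratio was not tested.

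The catalytically inactive ADAM proteins of brain were read by 3 probes. Adam23 was below 0 on all 5 arrays with a value, at -0.50, -0.08, -0.51, -0.19 and -0.36 on arrays 1, 3, 4, 5 and 6 (-0.32 ± 0.13), but did not pass (limma adjusted p = 0.240). Adam11 had a mean of 0.24 ± 0.13 and Adam22 of 0.01 ± 0.10.

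Outside Adamts9, no ADAMTS gene passed. ADAMTS1, a versican-cleaving protease that also binds VEGF, read -0.18, -0.05, 0.31, 0.28, -0.41 and 0.53 on arrays 1 to 6 (0.08 ± 0.14, limma adjusted p = 0.838), with 3 arrays on each side of 0. ADAMTS5, the main aggrecanase of mouse cartilage, read -0.39, 0.48, -0.21, -0.25 and 0.02 on arrays 1, 2, 3, 5 and 6 (-0.08 ± 0.15, limma adjusted p = 0.861). Adamts8 and Adamts15 both stood at 0.03, with standard errors of 0.12 and 0.14. The 95% intervals of these 4 proteoglycanases lay between -0.42 and 0.39, below the interval of either Adamts9 probe; no difference between genes was tested. Adamts10, a protease linked to fibrillin microfibrils, had a mean of 0.26 ± 0.13 (limma adjusted p = 0.352) and Adamts7 of -0.08 ± 0.13.

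ADAMTS-like proteins share the matrix-binding domains but have no protease. Adamtsl2, which binds fibrillin and latent TGF-beta binding protein, read 0.70, 0.27, 0.31, 0.33 and 0.30 on arrays 1, 3, 4, 5 and 6. All 5 were above 0 and 4 of them lay close together (0.40 ± 0.12), yet it did not pass (limma adjusted p = 0.128). Adamtsl1, Adamtsl4 and Adamtsl5 had means of 0.12, -0.07 and 0.05.

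Most matrix metalloproteinases had small negative means, but none of the 17 tested passed in limma, and 1, Mmp9, had an unadjusted p under 0.05. Of the 17 means 14 were below 0 (median -0.11), against 50.6% below 0 among all probes. This count rests in part on array 2, which held the lowest values of several of these genes: without it 10 of 17 were below 0. It was 4 of 18 with rows read as deposited, where the median turned to 0.12. The 3 above 0 were Mmp9, Mmp14 and Mmp17.

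The means of the gelatinases had opposite signs, and neither gene passed. MMP9, a gelatinase stored in neutrophil granules, read 0.21, 0.19, 0.92, 0.62 and 0.52 on arrays 1, 3, 4, 5 and 6. All 5 lay above 0, with the channel 2 arrays above the channel 1 arrays (means 0.69 and 0.20). The mean was 0.44 ± 0.12 (1.36-fold) and did not pass (limma adjusted p = 0.0911). MMP2, made by stromal cells, read -0.54, 0.09, -0.18, -0.04, -0.61 and -0.20 on arrays 1 to 6, with 5 of 6 below 0 (-0.25 ± 0.12, limma adjusted p = 0.354). The limma 95% intervals, 0.16 to 0.72 for Mmp9 and -0.52 to 0.03 for Mmp2, did not overlap; the difference itself was not tested. The part of neutrophils, whose markers are given beside Adam8, in the ratio of Mmp9 was not tested.

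Collagenases and stromelysins were near 0. Their 7 tested means, for Mmp1a, Mmp1b, Mmp8, Mmp13, Mmp3, Mmp10 and Mmp11, ran from -0.21 to -0.05. MMP13 read 0.19, -0.26, -0.26, -0.20 and -0.07 on arrays 1, 3, 4, 5 and 6 (-0.10 ± 0.13). MMP3 read 0.42, -0.28, -0.24 and -0.12 on arrays 1, 3, 4 and 5 (-0.05 ± 0.16). Both were positive on array 1 and negative elsewhere. MMP11, a stromelysin known in fat for its effect on adipocyte differentiation, read -0.10, 0.23, -0.64, -0.44 and -0.10 on arrays 1, 3, 4, 5 and 6 (-0.17 ± 0.13, limma adjusted p = 0.600). Mmp8, the neutrophil collagenase, was the least precise member (-0.16 ± 0.36), with -2.55 on array 2 and 1.14 on array 5. Mmp7, the matrilysin, had values on arrays 3, 5 and 6 only (-0.14, -0.16 and -0.80) and was not tested.

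Among the membrane-type enzymes, MMP14, the collagenase and activator of pro-MMP2 that adipose tissue depends on for its growth, read 0.11, 0.10, 0.55, 0.06 and 0.53 on arrays 1, 3, 4, 5 and 6. All 5 were above 0, with arrays 4 and 6 high (0.24 ± 0.13, limma adjusted p = 0.394). Mmp16, Mmp17 and Mmp24 had means of -0.19, 0.07 and -0.20. MMP12 read 0.01, -0.50, -0.06, -0.80 and 0.30 on arrays 1, 2, 3, 5 and 6 (-0.22 ± 0.17, limma adjusted p = 0.600). MMP19 read 0.01, -0.35, 0.20, 0.20 and -0.52 on arrays 1, 3, 4, 5 and 6 (-0.11 ± 0.15), on both sides of 0. Mmp20 read 0.37, -0.53, -1.07, -0.18 and -0.30 on those arrays and had the lowest mean of the MMP genes (-0.30 ± 0.18, limma adjusted p = 0.466). Mmp23 had a mean of -0.05 ± 0.11.

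**Figure D3:**
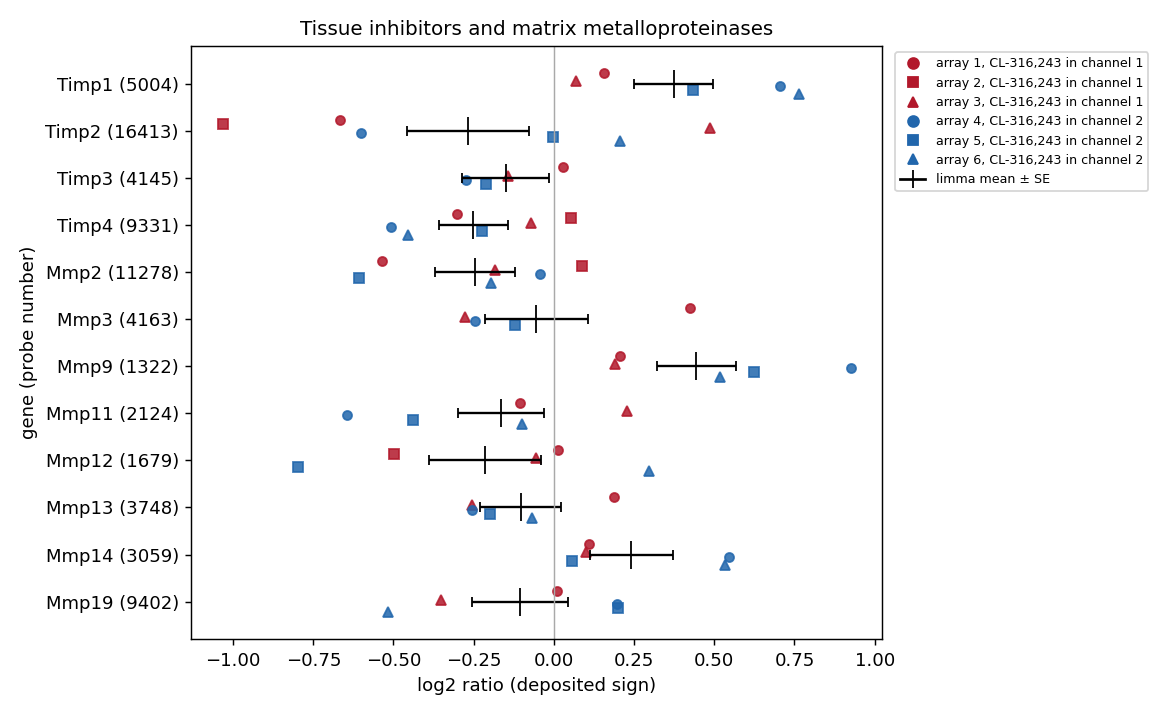
Log2 ratio (x axis) of the 4 Timp probes and 8 Mmp probes (y axis, probe number in brackets), 1 point per array, coloured by the channel that held CL-316,243 RNA; black crosses are the limma mean ± SE. Timp1, Mmp9 and Mmp14 lie above 0 on all 5 arrays with a value, while Timp2 spreads from -1.03 to 0.49; none passed the threshold.

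Of the 4 inhibitors, Timp1 lay above 0 and the other 3 below; 0 passed in limma, and 2 (Timp1 and Timp4) had an unadjusted p under 0.05. Timp1, the soluble inhibitor with a strong affinity for pro-MMP9, read 0.16, 0.07, 0.70, 0.43 and 0.76 on arrays 1, 3, 4, 5 and 6. All 5 were above 0 and the channel 2 arrays were the higher ones, as for Mmp9 (mean 0.37 ± 0.12, limma adjusted p = 0.145). Timp2, which takes part in the activation of pro-MMP2 by MMP14, read -0.67, -1.03, 0.49, -0.60, -0.00 and 0.21 on arrays 1 to 6 (-0.27 ± 0.19, limma adjusted p = 0.534), on both sides of 0. Timp3, the matrix-bound inhibitor of ADAM17 and of aggrecanases, read 0.03, -0.14, -0.27 and -0.21 on arrays 1, 3, 4 and 5 (-0.15 ± 0.14, limma adjusted p = 0.654). Timp4, an inhibitor of restricted expression that is present in fat, read -0.30, 0.05, -0.07, -0.51, -0.22 and -0.46 on arrays 1 to 6, with 5 of 6 below 0 (-0.25 ± 0.11, limma adjusted p = 0.262). The 8 adipocyte markers beside it had means of -0.47 to 1.17 with a median of 0.46, 6 of them above 0, and 0 passed. At an unadjusted limma p under 0.05 there were 6 of the 8, beside 17.2% of all probes, and of these Pparg was negative (-0.47). The values of the adipocyte markers stood apart on array 3, with a median of 1.57 against 0.08 to 0.35 on the other arrays. The 0.35, on array 2, rests on 3 probes. Every array held the same 2 pools, so this is a difference between arrays and not between tissues. The part of adipocyte content in the ratio of Timp4 was not tested.

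Genes that activate, bind or inhibit these proteases gave 2 passing probes of 32 tested (44 genes listed; 6.25%, beside 3.93% of all probes), both positive; 16 means were above 0 and 16 below, with a median of 0.01. Sdc4, a cell-surface heparan sulfate proteoglycan of this list that metalloproteinases also shed, read 1.92, 1.19, 1.94, 1.88 and 1.03 on arrays 1, 3, 4, 5 and 6 (1.58 ± 0.18, limma adjusted p = 0.00253). Thbs1, a matrix glycoprotein that binds MMP2 and MMP9, read 0.65, 0.80, 0.58 and 0.88 on arrays 1, 3, 5 and 6 (0.73 ± 0.14, limma adjusted p = 0.0288). All arrays of both genes lay above 0. Counted as a substrate instead, an alternative chosen after seeing the data, Sdc4 would leave 1 of 31 regulators (3.23%) and make 3 of 26 substrates (11.5%). Neither gene could be tested without array 1 or array 3, and Thbs1 also not without array 5 or array 6.

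Substrates gave 2 passing probes of 25 tested (35 genes listed; 8%, beside 3.93%), again both positive, with 13 means above 0, 12 below and a median of 0.01. Cx3cl1, a membrane-bound chemokine released by ADAM10 and ADAM17, read 0.94, 0.35, 1.54 and 1.06 on arrays 1, 3, 5 and 6, all above 0 (0.97 ± 0.16, limma adjusted p = 0.0177). Cdh1, the epithelial cadherin, read 0.61, 0.85, 0.73, 0.39, 0.52 and -0.01 on arrays 1 to 6, with array 6 the only one not above 0 (0.51 ± 0.11, limma adjusted p = 0.0325). Without any 1 of arrays 1 to 5 Cdh1 did not pass (means 0.46 to 0.54, limma adjusted p from 0.0531 to 0.153). Cx3cl1 passed without array 2 or 4 and had too few values to be tested without any other array or with a posterior of at least 0.99, where Cdh1 did not pass either (0.48, limma adjusted p = 0.0770). Smooth muscle markers, which vessels also supply, were positive beside these genes: 4 of 4 means were above 0 and 2 passed (Acta2 0.70, Cnn1 1.26). The 5 endothelial and 6 fibroblast markers tested gave 0 passing, with medians of -0.12 and -0.05. At an unadjusted limma p under 0.05 there were 1 and 0 of them, beside 17.2% of all probes. Their part in the members' ratios was not tested.

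**Figure D4:**
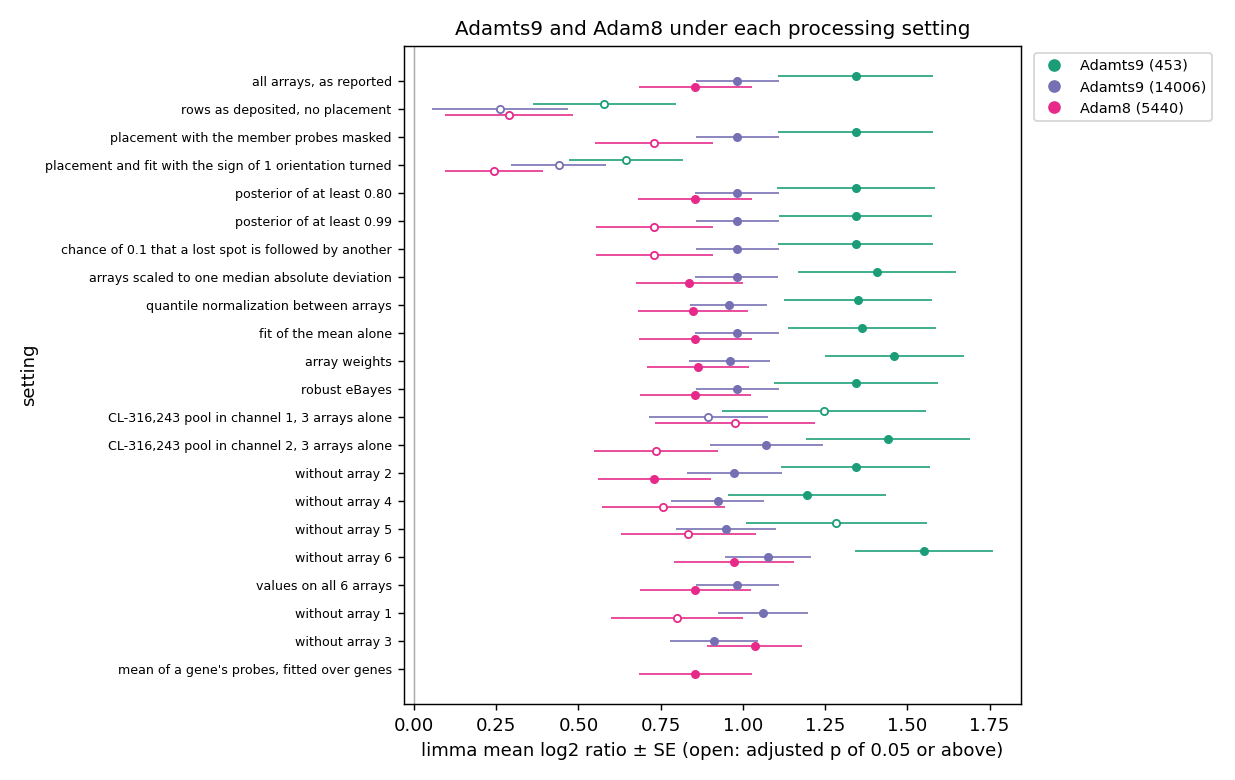
Limma mean log2 ratio ± SE (x axis) of both Adamts9 probes and of Adam8 under each processing setting (y axis); filled points passed an adjusted p of 0.05 and open points did not. All means lie above 0; none passes with rows read as deposited, with 1 orientation turned, or in the 3 channel 1 arrays alone.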

How the data were processed

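The authors hybridised 2 RNA pools on 6 two-colour arrays and, per the labels' protocols, quantified scans with QuantArray, applied a uniform scale factor between dyes and LOWESS with an in-house program, and deposited 1 log ratio per spot, taken as log2. How background was corrected and why spots were dropped is not stated in those protocols; no intensities were used. Columns ended in 29, 724, 38, 169, 8 and 1 empty rows on arrays 1 to 6. Each was placed on probe numbers by a hidden Markov model that lets spots be lost but never reordered (normal scores clipped at 3, 3 rounds, chance of a further loss 0.5), keeping values with a posterior of at least 0.95. In 2 simulations at least 99.8% of kept positions were right. Those simulations took the correlations and losses that the placement itself had inferred, so they cannot give its accuracy on the real columns. Where columns share nothing, 0.109% to 74.6% of positions were still kept. The platform table gave 14711 probes 1 symbol, 6 several and 4483 none.

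Ratios were fitted with limma 3.58.1 (R 4.3.3) as in the report. On simulated data of 18301 probes for this comparison it recovered 5 of 100 probes shifted by 0.5 and 70 of 100 shifted by 1. Of its 78 calls there, 3 were false. The share of false calls after placement of the deposited columns was not tested. Each slide has its own lot number, so no batch of slides could be tested. Members and gene lists were chosen with earlier results of these data known. Named were all passing members, the 15 with the largest means, all probes of Adamts9 and of genes with several probes, all Timps, and well-known members in fat. Alternatives covered placement, posterior, scaling, dye term, weights, filter, arrays left out, single orientations and gene means. Promoter windows are RefSeq's (GRCm38.p6); motifs were matched on both strands.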

Additional observations from a re-analysis of the deposited data

Results flagged for a closer look

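Mmp10, a stromelysin, had arrays of opposite sign in the 2 orientations. It read -0.36 and -0.00 on arrays 1 and 3 and 0.01, 0.09 and 0.17 on arrays 4 to 6, so that its mean was higher by 0.27 with CL-316,243 RNA in channel 2 than in channel 1 (0.09 and -0.18). The difference did not pass in the limma dye term (adjusted p = 0.707), and several of these values lie close to 0. Other members had larger differences with orientation means of opposite sign, such as Mmp8 (0.97) and Adam17 (0.52). Their arrays in channel 1 fell on both sides of 0.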

How the results depend on the processing

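The count of 3 passing members became 0 with rows read as deposited, 0 with the sign of 1 orientation turned and 0 in the channel 1 arrays alone; with 1 array left out it lay between 1 and 3, with 1 without array 1 (33 probes tested) and 1 without array 5. It was 2 with members masked, a posterior of at least 0.99, a loss chance of 0.1, values on all 6 arrays, gene means or the channel 2 arrays alone, and 3 in the 6 other settings. Passing probes over the whole array numbered 719, and 0 as deposited, 117 turned, 38 in channel 1 alone, 1110 with array weights, 485 on all 6 arrays, 176, 464, 404 and 189 without array 1, 3, 4 or 5, and 412 genes. With 1 orientation turned the Adamts9 probes stood at 0.64 and 0.44 and Adam8 at 0.24 (limma adjusted p = 0.118, 0.184 and 0.438). Over its alternatives other than rows as deposited (0.29) Adam8 ran from 0.24 to 1.04 (limma adjusted p from 0.00415 to 0.438). Regulators fell from 2 to 0 as deposited and to between 0 and 2 with 1 array left out. With Sdc4 counted as a substrate, chosen after seeing the data, regulators had 1 and substrates 3. Substrates fell from 2 to 0 as deposited, to 0 at a posterior of at least 0.99, and to between 0 and 1 with 1 array left out. Fewer values were tested without array 1 or 3; the cause of the other losses was not tested. The 3 passing probes kept their call in 41 of 58 settings and lost it in 17; the sign of Adam17, near 0, turned in 10 of 21. No paired analysis was possible because the arrays repeat 1 pair of pools and their numbers only name them. Signal over background is unknown for ratios, and changes of 0.5 were mostly below what the test recovered.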
